A study of Mus musculus with 4 samples.

Results

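Acetylated histone H4 was examined across the neutrophil chemokine locus of mouse chromosome 5, which holds Cxcl5, Cxcl3, Cxcl1 and Cxcl2. Its members are the deposited peaks that overlap the stretch from 91.15 to 91.36 Mb of chromosome 5 in the mm9 genome build. That window held 45 of the 175801 peaks in the 4 deposited lists. The wt lists gave 17 of 48706 peaks without and 12 of 39550 with LPS, and the HDAC3 KO lists gave 6 of 41956 and 10 of 45589. Overlapping peaks of the 4 lists merged into 19 regions, of 62522 across the genome.

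The cells were primary bone marrow-derived macrophages from C57BL/6 mice on day 7 of differentiation. The control genotype, labelled wild type and written wt here, was HDAC3 +/- and so carried 1 intact copy of the gene, and the HDAC3 KO cells were HDAC3 -/-. Cells of each genotype were left untreated or were given lipopolysaccharide (LPS), the endotoxin of Gram-negative bacteria, at 100 ng/ml for 4 h. Chromatin was immunoprecipitated with an antibody to acetylated histone H4 and sequenced (ChIP-seq). How the Hdac3 allele was deleted, and how many animals gave cells to a library, are not given in the sources used here. With 1 library per group, no difference given here has a replicate spread to be set against, and none was tested.

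Cxcl1 (also called KC), Cxcl2 (MIP-2), Cxcl3 and Cxcl5 (LIX) encode secreted chemokines that act on the receptor Cxcr2 and draw neutrophils to sites of infection. Macrophages are a known source of Cxcl1 and Cxcl2 after LPS, and NF-kB is the best known activator of these genes. Acetylation of histone tails accompanies open, active regulatory DNA. HDAC3, which removes such acetyl groups, acts inside the NCoR and SMRT corepressor complexes. In the RefSeq annotation of GRCm38.p6 the genes lie in the order Cxcl5, Ppbp, Pf4, Cxcl3, Cxcl15, Cxcl1 and Cxcl2, followed by Mthfd2l. Ppbp and Pf4 encode platelet chemokines. The deposited peaks are on mm9, and no mm9 gene annotation was used here, so no peak is assigned to a gene, and neither the Hdac3 deletion nor macrophage marker genes could be checked in the peaks.

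Promoter stretches are shown for the members because the locus is read here as a group of LPS-inducible genes. RefSeq promoter sequences (GRCm38.p6, plus strand) matched 3 of the 4 members by symbol, Cxcl1, Cxcl2 and Cxcl3. Printed 5′ to 3′ are the 110 bases that end just before the annotated start, with capitals marking the longest run of bases that the 3 have in common (GGGAATTTCCC, a kB-type sequence) and a TATA-type match (ATAAAA).
Cxcl1: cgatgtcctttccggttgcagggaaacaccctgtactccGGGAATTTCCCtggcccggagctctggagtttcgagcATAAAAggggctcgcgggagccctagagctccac
Cxcl2: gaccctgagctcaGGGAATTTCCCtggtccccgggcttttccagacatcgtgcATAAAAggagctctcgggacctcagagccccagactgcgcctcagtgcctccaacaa
Cxcl3: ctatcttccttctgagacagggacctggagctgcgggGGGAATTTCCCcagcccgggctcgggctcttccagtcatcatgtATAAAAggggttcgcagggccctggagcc
The first base of the shared run of 11 lay 71 bases before the start in Cxcl1, 97 in Cxcl2 and 73 in Cxcl3. Searched on both strands over the 250 bases before each start, it was found in 14 of 32851 promoter windows (0.0426%), and in none of Ppbp, Pf4 and Cxcl15. ATAAAA on the gene strand, which does not overlap the run, was found in 3362 of the 32851 windows (10.2%). Its first base lay 34 bases before the start in Cxcl1, 57 in Cxcl2 and 29 in Cxcl3. Ppbp had ATAAAA too, 29 bases before its start, and Pf4 and Cxcl15 did not. The search was for this exact sequence: the 110 bases before the Cxcl15 start hold TATAAA, which was not searched for. The run and ATAAAA were found together in 3 windows (0.00913%), those of the members from which the run was taken. These matches describe the sequence, were chosen after the promoters had been read, and carry no measurement of binding.

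The 4 libraries differed most in how much of the locus was called in untreated HDAC3 KO cells. In wt, peaks covered 10.3 kb of the window without and 9.48 kb with LPS, 4.89 and 4.52% of its 210001 bp. In HDAC3 KO they covered 3.01 kb without and 9.59 kb with LPS, 1.43 and 4.57%. The untreated HDAC3 KO library was the only low one, and the other three lay close together. Over the whole genome, the peaks of untreated HDAC3 KO covered slightly more than those of untreated wt, 36.4 against 35.4 Mb, and those of the LPS-treated libraries covered 37.4 Mb (wt) and 50.4 Mb (HDAC3 KO). Read depth is unknown because the files hold peaks and not reads.

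With peaks at the right edge taken at full width, median peak width in the locus was above that of the whole list in 3 of the 4 libraries. Widths ran from 139 to 1413 bp in untreated wt (median 480, against 590.0 over the list) and from 343 to 1442 bp in LPS-treated wt (884 against 722). In untreated HDAC3 KO they ran from 193 to 1327 bp (710 against 691), and in LPS-treated HDAC3 KO from 299 to 2483 bp (1010 against 836). The peak of 1327 bp is the one at the right edge. Other widths in untreated HDAC3 KO were 193, 358, 680, 740 and 777 bp, so its place above the list median rests on the edge peak. Each peak has a score from the authors' peak caller, on a scale that the sources used here do not give. Scores serve here to place a peak within its own list and, across lists, to choose which regions are named. The highest in the window was 432 in wt without and 419 with LPS, and 366 in HDAC3 KO without and 413 with LPS. The 419 and the 366 belong to peaks at the right edge, with 40 of 1009 bp and 265 of 1327 bp inside the window. Of peaks lying wholly inside, the highest score was 369 in LPS-treated wt and 193 in untreated HDAC3 KO. At or above the median score of their own list were 5 of 17 and 5 of 12 peaks in wt without and with LPS. In HDAC3 KO they were 3 of 6 without and 5 of 10 with LPS.

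**Figure D1:**
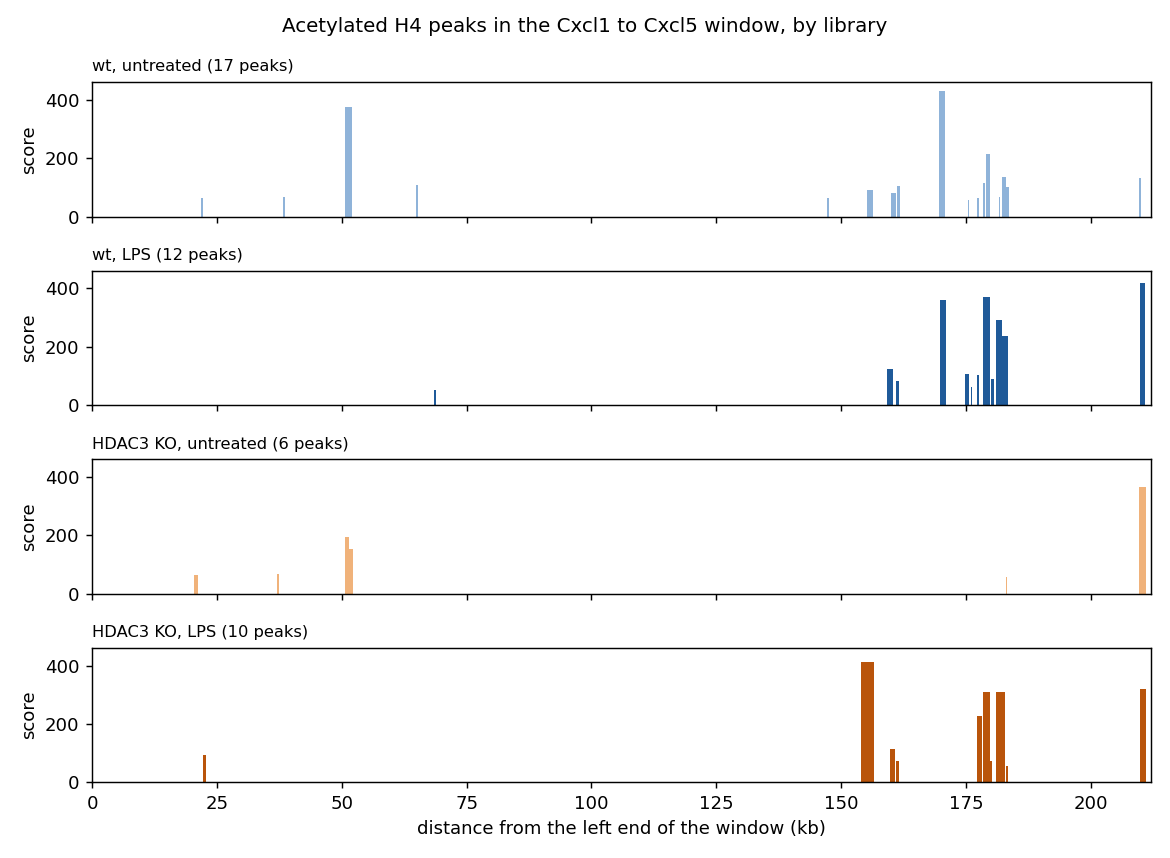
Peaks of each library along the window (x axis, kb from its left end; bars narrower than 0.25 kb are drawn at 0.25 kb) with the deposited score of each peak as bar height, which is not comparable between libraries. Most bars of both wt libraries and of LPS-treated HDAC3 KO stand between 147 and 183.6 kb, where untreated HDAC3 KO has 1 short bar.

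Stretches of at least 20 kb without a peak in any library divided the window into a left segment, a right segment and a region at the right edge, a division made after the peaks had been seen. The left segment ran from 91170452 to 91218887 and held 7 regions. A gap of 78.3 kb without a peak followed. The right segment ran from 91297229 to 91333555, 36.3 kb with 11 regions, and the edge region from 91359626 to 91361087, with 26.1 kb free of peaks between them.

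The right segment carried the genotype difference. Untreated wt had 12 peaks covering 7.33 kb there, and untreated HDAC3 KO had 1 peak of 193 bp. With LPS, 10 peaks covered 9.03 kb in wt and 8 peaks covered 9.12 kb in HDAC3 KO. The LPS change was 1.71 kb in wt and 8.92 kb in HDAC3 KO, and the genotype difference (HDAC3 KO minus wt) was -7.13 kb without and 0.085 kb with LPS.

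In the left segment the summed length differed by treatment and was close between genotypes, although most of the calls lay in different regions. Peaks covered 2.58 kb in untreated wt and 2.56 kb in untreated HDAC3 KO, with 4 peaks in each. Of the 7 regions, 1 was called in both untreated libraries, 3 in untreated wt and not in untreated HDAC3 KO, and 2 the other way. In LPS-treated cells each genotype had 1 peak, of 0.411 kb in wt and 0.443 kb in HDAC3 KO. These lay in different regions, and neither overlapped an untreated peak of its own genotype. The low summed coverage of untreated HDAC3 KO was thus found in the right segment and not in the left.

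**Figure D2:**
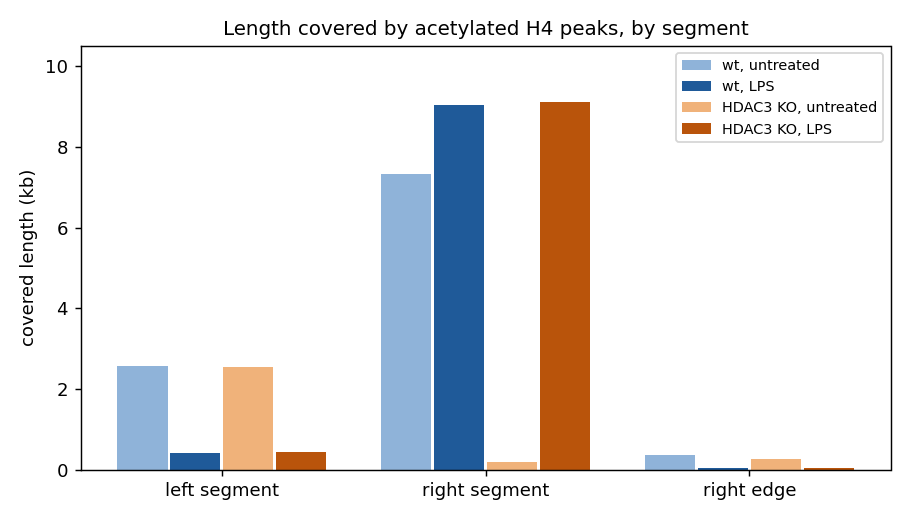
Length covered by peaks (y axis, kb) in the left segment, the right segment and the part of the edge region inside the window, 1 bar per library and no error bars since each group has 1 library. Untreated HDAC3 KO covers 0.193 kb of the right segment against 7.33 kb in untreated wt, while the left segment separates untreated from LPS-treated cells.

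Within the right segment, the highest-scored untreated wt peak of the locus lay in the region 91319651 to 91321112. It was 1181 bp wide with a score of 432, the 89.1th percentile of its list. LPS-treated wt had a peak of 1199 bp there (score 360.2, 75.2th percentile), and neither HDAC3 KO library had one. Of the 5292 peaks of untreated wt with at least that score, 22 (0.416%) had no overlapping peak in untreated HDAC3 KO. In LPS-treated wt, 83 of 9827 peaks (0.845%) scored at least as high as the peak there and lacked a partner in LPS-treated HDAC3 KO. Within each treatment, a missing HDAC3 KO partner was thus uncommon for peaks of its score. The region was picked for its score and calls, and no share was computed for absence in both HDAC3 KO libraries at that score. A second, weaker region at 91324891 to 91325673 had the same calls, with 139 bp (score 58.1) in untreated and 759 bp (score 108) in LPS-treated wt. Across the genome 2.02% of merged regions were called in both wt and neither HDAC3 KO library.

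Within the right segment 4 regions, not all next to each other, were called in every library except untreated HDAC3 KO, a pattern held by 3.45% of all merged regions. The strongest, 91328357 to 91329899, held 2 peaks covering 1052 bp in untreated wt (highest score 214), 1 peak of 1442 bp in LPS-treated wt (score 369) and 1 of 1540 bp in LPS-treated HDAC3 KO (score 311). The region 91327190 to 91328156 had 449 bp in untreated wt, 422 bp in LPS-treated wt and 967 bp in LPS-treated HDAC3 KO. Both were at least as long in LPS-treated HDAC3 KO as in either wt library. The other 2 lay at 91309238 to 91310980 (991, 1173 and 1053 bp) and 91311014 to 91311731 (551, 535 and 550 bp), with near-equal lengths in the 3 libraries. The count depended on how regions were merged: across gaps of up to 500 bp, 1 of 14 regions of the locus had this pattern.

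The widest peak of the locus was found in LPS-treated HDAC3 KO, at 91304069 to 91306551, where it spanned 2483 bp with a score of 413. Untreated wt had 1162 bp there at a score of 91.4, and LPS-treated wt and untreated HDAC3 KO had no peak. Of the 10165 peaks of LPS-treated HDAC3 KO with at least that score, 328 (3.23%) lacked a partner in LPS-treated wt and 1005 (9.89%) lacked one in untreated HDAC3 KO. The 2 genotypes thus had different strong peaks in the right segment after LPS: 91319651 to 91321112 in wt only, and this one in HDAC3 KO only. Summed over all peaks of the segment, coverage was 9.03 kb in wt and 9.12 kb in HDAC3 KO.

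The region at the right end of the segment, 91331074 to 91333555, was the only one of the 11 with a peak in all 4 libraries. It was covered by 3 peaks and 1453 bp in untreated wt, 2 peaks and 2427 bp in LPS-treated wt, 1 peak and 193 bp in untreated HDAC3 KO, and 2 peaks and 2225 bp in LPS-treated HDAC3 KO. The single peak of untreated HDAC3 KO scored 56.8, at the 10.0th percentile of its list. Coverage here was longer with LPS in both genotypes, by 974 bp in wt and by 2032 bp in HDAC3 KO. One neighbouring region, 91329924 to 91330684, was called with LPS in both genotypes (732 bp in wt, 299 bp in HDAC3 KO) and in neither untreated library. Such regions made up 6.56% of all merged regions. The remaining 2 regions of the right segment were weak calls in 1 library each, 91297229 to 91297576 in untreated wt (score 64.4) and 91325959 to 91326301 in LPS-treated wt (score 60.6).

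**Figure D3:**
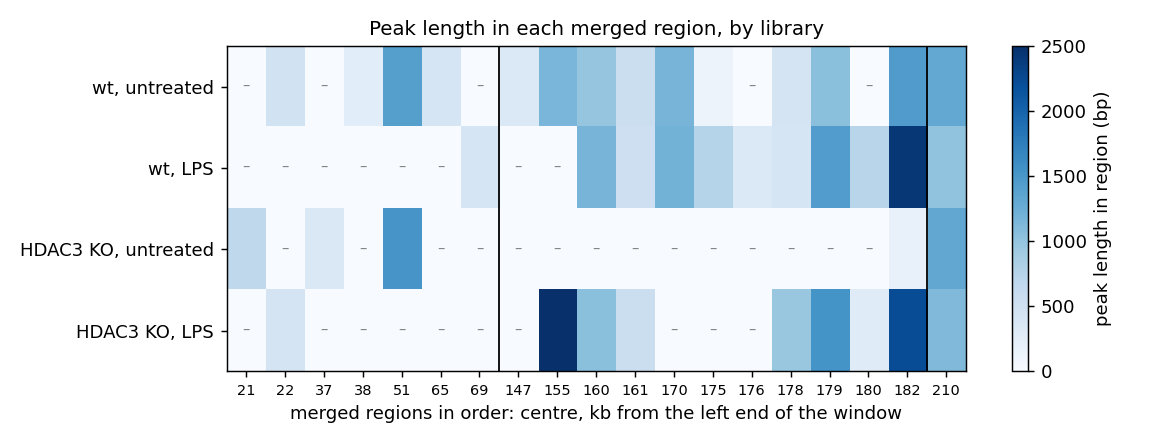
Summed peak length (colour, bp) in each of the 19 merged regions (columns, in order along the chromosome, labelled by the kb from the left end of the window to their centre) for each library (rows), with a dash where no peak was listed and lines between segments. In the 11 regions of the right segment, untreated HDAC3 KO has a single peak, at 182 kb, and the regions at 155 and 170 kb are called in LPS-treated cells of 1 genotype only.

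In the left segment the leading region was 91200666 to 91202268, which was called in both untreated libraries and in neither LPS-treated one. Untreated wt had 1 peak of 1413 bp with a score of 374, and untreated HDAC3 KO had 2 peaks covering 1517 bp with a highest score of 193. Of the untreated wt peaks with at least that score, 201 of 6717 (2.99%) had no partner in LPS-treated wt. In HDAC3 KO it was 577 of 14237 (4.05%) in the same comparison. Regions lost in this way in both genotypes made up 4.86% of all merged regions. The other 6 regions of the left segment were 267 to 905 bp wide, scored from 50.9 to 107 at their highest, and none was called in more than 2 libraries. Of these, the highest-scored was 91214780 to 91215196, called in untreated wt only (417 bp, score 107). Weak peaks of untreated HDAC3 KO alone lay at 91170452 to 91171131 (score 64.2) and 91186998 to 91187355 (score 66.3). Each had a weak peak of untreated wt within 1 kb that did not overlap it. These were 91171799 to 91172278, which overlapped a peak of LPS-treated HDAC3 KO, and 91188271 to 91188537, called in untreated wt alone. The only left-segment peak of LPS-treated wt, 91218477 to 91218887, was among the weakest of its list (1.3th percentile).

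The edge region, 91359626 to 91361087, was called in all 4 libraries and extends past the window. Its full length in peaks was 1311 bp in untreated wt, where 1 of its 2 peaks lies outside the window, and 1009 bp in LPS-treated wt. It was 1327 bp in untreated and 1118 bp in LPS-treated HDAC3 KO. Its score in untreated HDAC3 KO was 366, the 83.7th percentile of that list, and 265 bp of that peak lay inside the window. A call in all 4 libraries was found in 2 of the 19 regions of the locus and in 28.5% of all merged regions.

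The first comparison set untreated HDAC3 KO against untreated wt, which shows how the peak lists of the genotypes differed before stimulation. Of the 17 untreated wt peaks, 14 had no overlapping peak in untreated HDAC3 KO, 82.4% (exact Clopper-Pearson 95% interval 56.6 to 96.2%), where the share over the whole list was 29.3%. Of those 14, 11 scored below the median of their list. In the other direction 2 of 6 peaks lacked a partner (interval 4.33 to 77.7%), against 24.6% of the list. Of the 19 regions, 11 were called in untreated wt and not in untreated HDAC3 KO (19.1% of all merged regions), and 2 the other way (13.1%). Intervals cover counting error only, and neighbouring peaks are not independent.

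Covered length differed by -7.27 kb (HDAC3 KO minus wt), leaving 29.3% of the untreated wt length. A difference of -5 kb or below was found in 88 of 6790 windows of the same size with a peak in any library (1.30%), and in 88 of the 2486 that had at least 5 kb in untreated wt (3.54%). The ratio was as low as here in 35 of those 2486 windows (1.41%), and their median ratio was 1.02. The size of the difference rested largely on low-scored peaks: it was -2.47 kb with peaks at or above the median score of their list, and -1.47 kb when each list was cut to its 20000 highest scores.

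The second comparison set LPS-treated HDAC3 KO against LPS-treated wt. Covered length was 0.108 kb longer in HDAC3 KO, where the median window was 0.623 kb longer. Of 10 peaks in HDAC3 KO, 2 had no partner in wt (interval 2.52 to 55.6%), against 35.3% of the list. Of 12 in wt, 4 had none in HDAC3 KO (9.92 to 65.1%), against 19.5% of the list. A peak in wt and not in HDAC3 KO was found in 4 of 19 regions (11.6% of all merged regions), and the reverse in 2 (23.4%). The size and sign of this difference depended on the setting. It was 1.72 kb with peaks at or above the median score (6.83 against 5.11 kb) and -0.184 kb with peaks within 500 bp joined. After division by the total of each list, which was larger in LPS-treated HDAC3 KO, it was -2.52 kb.

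**Figure D4:**
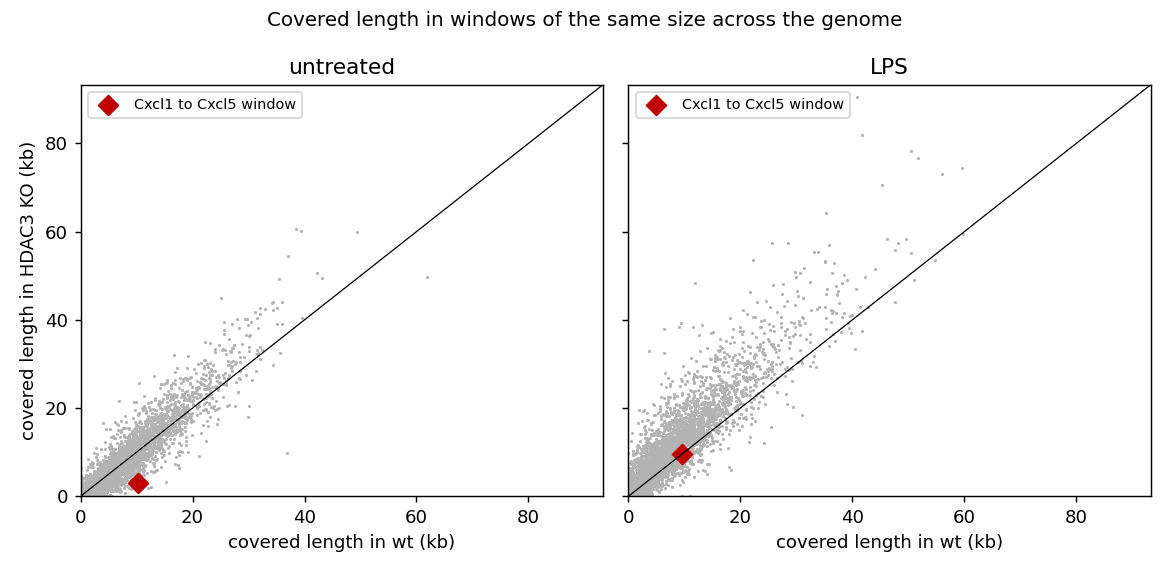
Covered length in wt (x axis, kb) against HDAC3 KO (y axis, kb) for the 6790 windows of the same size with a peak in any library, untreated on the left and LPS-treated on the right, with the line of equal length. The chemokine window (diamond) sits below the line at 10.3 and 3.01 kb in untreated cells and close to the line at 9.48 and 9.59 kb in LPS-treated cells.

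LPS in wt, the third comparison, left covered length close to where it was, at -0.795 kb. The sign of this difference depended on weak peaks, since it was 0.855 kb with peaks at or above the median score and 1.86 kb with the 20000 highest-scored peaks. Of 12 LPS-treated peaks, 3 had no partner in untreated wt (interval 5.49 to 57.2%), against 31.7% of the list. Of 17 untreated peaks, 6 had none in LPS-treated wt (14.2 to 61.7%), against 35.6%. Both counts are near the share of the whole list. By regions, 3 were gained (16.2% of all merged regions) and 6 were lost (22.7%), where gained and lost describe calls in a pair of libraries. Covered length changed by -2.17 kb in the left segment and by 1.71 kb in the right one, where 12 peaks were called without and 10 with LPS. Within the right segment the 10-kb bins differed: coverage was 1654 and 1659 bp longer with LPS in the bins from 170 to 180 and from 180 to 190 kb. It changed by -348, -410 and -849 bp in the bins from 140 to 150, 150 to 160 and 160 to 170 kb.

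In HDAC3 KO, the fourth comparison, LPS-treated cells had 6.58 kb more covered length than untreated ones, 3.18 times the untreated length. Windows higher by at least 5 kb numbered 1054 of 6790 (15.5%) in this comparison. Of 10 LPS-treated peaks, 8 had no partner in untreated HDAC3 KO, 80.0% (interval 44.4 to 97.5%), against 39.9% of the list. Of 6 untreated peaks, 4 lacked a partner in LPS-treated cells, 66.7% (22.3 to 95.7%), against 25.0%. As above, these intervals cover counting error only and treat neighbouring peaks as independent, which they are not. By regions, 7 were gained (26.4% of all merged regions) and 3 were lost (15.2%). The right segment was 8.92 kb longer, while the left one changed by -2.11 kb in sum, with 1 gained region of 443 bp in it. The largest change in a 10-kb bin was 2643 bp, from 150 to 160 kb, where the peak of 2483 bp lies.

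Across the crossed design, the LPS change in covered length was 7.37 kb larger in HDAC3 KO than in wt. A difference of at least 5 kb in that direction was found in 867 of 6790 windows (12.8%), and one as large as here in 449 (6.61%). Those windows include many with little coverage: in untreated wt their median was 3.17 kb, against 10.3 kb in the locus. No share among windows of like coverage was computed for this difference. Of the 7.37 kb, 0.108 kb came from the LPS-treated libraries and the rest from the untreated ones. With peaks at or above the median score the LPS-treated libraries gave 1.72 of 4.20 kb, and with lists cut to their 20000 highest scores 1.72 of 3.19 kb. No region of the locus had calls with and without LPS in HDAC3 KO and none in wt, a pattern of 2.81% of all merged regions. A missing peak is a missing call by the peak caller and does not show that acetylation was absent.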

How the data were processed

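Reads were handled with Bowtie on mm9, per the submitters' processing notes. The file headers name MACS as the peak caller, run against input. Versions, settings and the pairing of inputs are not given in the sources used here. Each deposited list belongs to 1 library and gives start, end and the authors' score of each peak (lowest value near 50). Read depth is unknown, so calls cannot be separated from depth or immunoprecipitation efficiency.

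Peaks overlapping the window by at least 1 bp were taken as members, and covered length was clipped to the window. Partners and merged regions needed 1 bp of overlap (bedtools 2.31.1). As a background, chromosomes were cut into windows of the same 210001 bp. No test across conditions was run, since each group had 1 library. Named regions were the 10 with the highest score in any library and up to 3 of each other call pattern. The members, lists and rules were chosen with earlier results of these data known. Alternatives were stricter scores, other overlaps, joined peaks, division by list totals and a wider window. The counts were tested on 4 simulated lists, where 107 of 107 values were recovered. Protein sequences were planned for the members and were not used here. Intervals are from scipy 1.17.1. Positions are counted from 1.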

Additional observations from a re-analysis of the deposited data

Results flagged for a closer look

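With all peaks, the LPS change in covered length of the locus went in opposite directions in the genotypes. It was -0.795 kb in wt and 6.58 kb in HDAC3 KO, a difference of 7.37 kb. This opposition did not hold with stricter peaks, where both genotypes had longer coverage with LPS. At or above the median score the change was 0.855 kb in wt and 5.05 kb in HDAC3 KO. With the 20000 highest scores it was 1.86 kb in wt and 5.05 kb in HDAC3 KO. The genotype difference likewise had opposite signs, -7.27 kb (HDAC3 KO minus wt) in untreated and 0.108 kb in LPS-treated cells. The opposite signs were not kept with peaks within 500 bp joined, where the difference was -8.32 kb without and -0.184 kb with LPS. Nor were they kept after division by list totals, which gave -8.30 kb without and -2.52 kb with LPS. Each value rests on 1 library per group, so neither difference was tested. Both contain the same untreated HDAC3 KO library.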

How the results depend on the processing

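No paired analysis was possible because each group had 1 library, and no library was left out. Covered length depended on the peaks used, and signs held in every setting for the LPS change in HDAC3 KO, the untreated genotype difference and the difference in LPS change. With peaks at or above the median score of their list, the LPS change was 0.855 kb in wt (reversed) and 5.05 kb in HDAC3 KO, the genotype difference -2.47 kb untreated and 1.72 kb with LPS, and the difference in LPS change 4.20 kb. With lists cut to their 20000 highest scores these were 1.86 (reversed), 5.05, -1.47, 1.72 and 3.19 kb. After division by list totals they were -1.48, 4.29, -8.30, -2.52 (reversed) and 5.77 kb. With peaks within 500 bp joined, the change in HDAC3 KO was 7.03 kb, the genotype difference -8.32 kb untreated and -0.184 kb with LPS (reversed), and the difference in LPS change 8.14 kb. In a window 50 kb wider on each side, the LPS change was -0.244 kb in wt and 7.86 kb in HDAC3 KO, the genotype difference with LPS 1.05 kb, and the difference in LPS change 8.10 kb.

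Peaks without a partner, at or above the median score, numbered 3 of 5 in untreated wt against untreated HDAC3 KO and 0 of 3 the other way, 4 of 5 in LPS-treated against untreated HDAC3 KO and 2 of 3 the other way, 1 of 5 in LPS-treated wt against LPS-treated HDAC3 KO, and 1 of 5 in each direction between the wt libraries. With the 20000 highest-scored peaks they were 2 of 3, 0 of 3, 4 of 5, 2 of 3, 1 of 5 and, for untreated against LPS-treated wt, 1 of 3. LPS-treated HDAC3 KO against LPS-treated wt gave 2 of 5 in both settings, where all peaks gave 2 of 10. For LPS-treated against untreated wt, 6 of 12 peaks lacked a partner covering 50% of the peak, and 1 of 12 had no peak within 500 bp.

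With peaks at or above the median score 7 regions were left: 3 were called untreated in wt and not HDAC3 KO and 0 the other way, 4 gained and 1 lost in HDAC3 KO, 0 gained and 1 lost in wt, 0 gained in both genotypes, 1 was called with LPS in wt and not HDAC3 KO, 1 in both wt and neither HDAC3 KO library, 2 in every library except untreated HDAC3 KO and 1 in all 4 libraries. Called with LPS in HDAC3 KO and not wt were 2 of the 7. Merged across gaps of up to 500 bp (14 regions), 3 were gained in HDAC3 KO, 1 in wt and 0 in both, and 1 was called in every library except untreated HDAC3 KO. In the wider window (27 regions), 11 were gained in HDAC3 KO, 5 in wt and 3 in both, 5 were lost in HDAC3 KO and 2 in both, and 4 were called with LPS in HDAC3 KO and not wt. Fewer peaks or regions in a setting give smaller counts by construction. Scores depend on depth and input, so the weaker part of each list is the least certain.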

Other observations

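The 210-kb window immediately to the left of the locus, 90939999 to 91149999, also had its lowest coverage in untreated HDAC3 KO: 1.42 kb with 3 peaks, against 5.26 kb with 9 peaks in untreated wt, 3.16 kb with 6 in LPS-treated wt and 3.22 kb with 6 in LPS-treated HDAC3 KO. The window to the right, 91360001 to 91570001, did not show this order, with 0.936 kb in untreated wt, 0.969 kb in LPS-treated wt, 1.06 kb in untreated HDAC3 KO and 1.62 kb in LPS-treated HDAC3 KO. One window further left, 90729998 to 90939998, untreated HDAC3 KO was again lowest, with 2.38 kb against 3.13 kb in untreated wt. LPS-treated cells had 2.56 kb (wt) and 3.85 kb (HDAC3 KO) there. One window further right, 91570002 to 91780002, only LPS-treated wt had a peak, covering 0.827 kb. These flanking windows were chosen after the values of the locus were seen and were not tested.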
